A study of Mus musculus with 80 samples.

Results

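The collagen and laminin chains are the genes that encode the structural polypeptides of the liver matrix. They were taken by symbol, as every measured gene named Col or Lam with the numbering of a collagen or laminin chain. The symbol rule used no expression value, but the choice was made with earlier results of these data known. This gave 39 genes of the 14560 measured, 28 collagen chains and 11 laminin chains, and all 39 passed the filter on low values. Of 55 chain genes listed from the families, 16 were not analysed here, among them Col2a1, Col4a6, Col11a1 and Col17a1. Collagens are built from chains that wind around each other into a rope-like helix: the fibrillar types give tissue its tensile strength, fibril-associated types sit on the fibrils, and collagen IV forms the network of basement membranes. Laminins are cross-shaped proteins of an alpha, a beta and a gamma chain, and they form the other network of basement membranes. The normal liver sinusoid has little basement membrane, and scarring of the liver is known for the build-up of fibrillar collagen made by activated stellate cells and portal fibroblasts.

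RNA was sequenced from livers of female C57BL/6J mice aged 8 weeks, either wild type or Adamts12-/-, a germline knockout of a secreted metalloprotease. Each mouse was injected once into the peritoneum, either with CCl4 (carbon tetrachloride, a liver toxin that hepatocytes around the central vein activate) at 0.3 ml per kg, as 3% by volume in olive oil, or with olive oil alone (vehicle). Livers were taken 4 h, 12 h, 24 h or 7 days later. The 2 genotypes, 2 treatments and 4 times gave 16 groups of 5 livers each, 80 in all. A single dose is a model of acute injury, and each library is RNA of whole liver, so that fewer cells of a type and less RNA per cell cannot be told apart.

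The libraries held 18.65 to 64.49 M reads (median 32.74), so that 3 reads were worth 1.156 to 6.015 normalized counts. Normalized counts are reads divided by a size factor for the library. Adamts12 itself had 5.89 to 75.6 normalized counts in the 40 wild-type livers (median 18.8) and 0.949 to 25.4 in the 40 Adamts12-/- livers (median 6.72); the ranges overlapped, and only the wild-type CCl4 livers at 24 h (29.8 to 75.6) all lay above every knockout liver. Which exons the knockout lacks is not given in the sources used here. The 5 measured hepatocyte markers, of 6 listed, summed to at least 1422364 normalized counts in each of the 78 livers that entered the fit. In the knockout at 12 h, the library labelled CCl4 replicate 5 stood with the vehicle livers and the library labelled vehicle replicate 1 stood with the CCl4 livers: Col18a1 was 37186 in the former against 9869 to 21444 in the other 4, and 11769 in the latter against 32955 to 45618. Both were left out, so 78 libraries entered the fit and these groups had 4 livers each. In the wild-type CCl4 group at 24 h, replicate 4 had a summed level of 6 mesothelium markers of 2402.7, against a group median of 40.3, and of 8 portal fibroblast markers of 5165.2, against a median of 302.9. In the wild-type CCl4 group at 12 h, replicate 2 stood nearer to the vehicle livers than the other 4 did. The mouse numbers in the labels were not spread evenly over treatments. In wild type at 24 h all vehicle livers but replicate 5 had a number below 7000, and no CCl4 liver did. At 12 h only CCl4 replicates 1 and 2 did. At 7 days CCl4 replicates 1 to 4 and vehicle replicates 1 and 2 did. No knockout library had a number below 7000. The labels do not say what the number means, and in wild type at 24 h it cannot be told apart from treatment. At 12 h and 7 days it cannot be fully told apart from treatment. At 12 h, 24 h and 7 days it cannot be fully told apart from genotype.

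By exon length, collagen XVIII was far ahead of every other chain in vehicle livers. Col18a1, whose product is a basement membrane proteoglycan and the source of endostatin, had 6027 normalized counts per kb as the mean of the 8 vehicle groups (group means 4862 to 7528), which was 79.9% of the sum over the 39 chains and above 98.3% of all genes. The next chains were Col4a1 with 250.4 counts per kb, Col14a1 with 226.8, Col4a2 with 160.5, Col15a1 with 104.4 and Col3a1 with 98.8. The collagen I chains stood lower, Col1a2 at 39.7 and Col1a1 at 35.2 counts per kb, which placed Col1a1 above 34.3% of genes. The laminin chain with the highest level was Lamc1, the common gamma chain, at 71.9 counts per kb and next came Lamb1 at 29.3, with Lamb2 just below it. At the low end stood Col8a1 (1.59), Col24a1 (1.29) and Col7a1 (0.879 counts per kb). Lengths are the union of all annotated exons of a gene, so chains with long alternative ends are set somewhat too low.

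**Figure D1:**
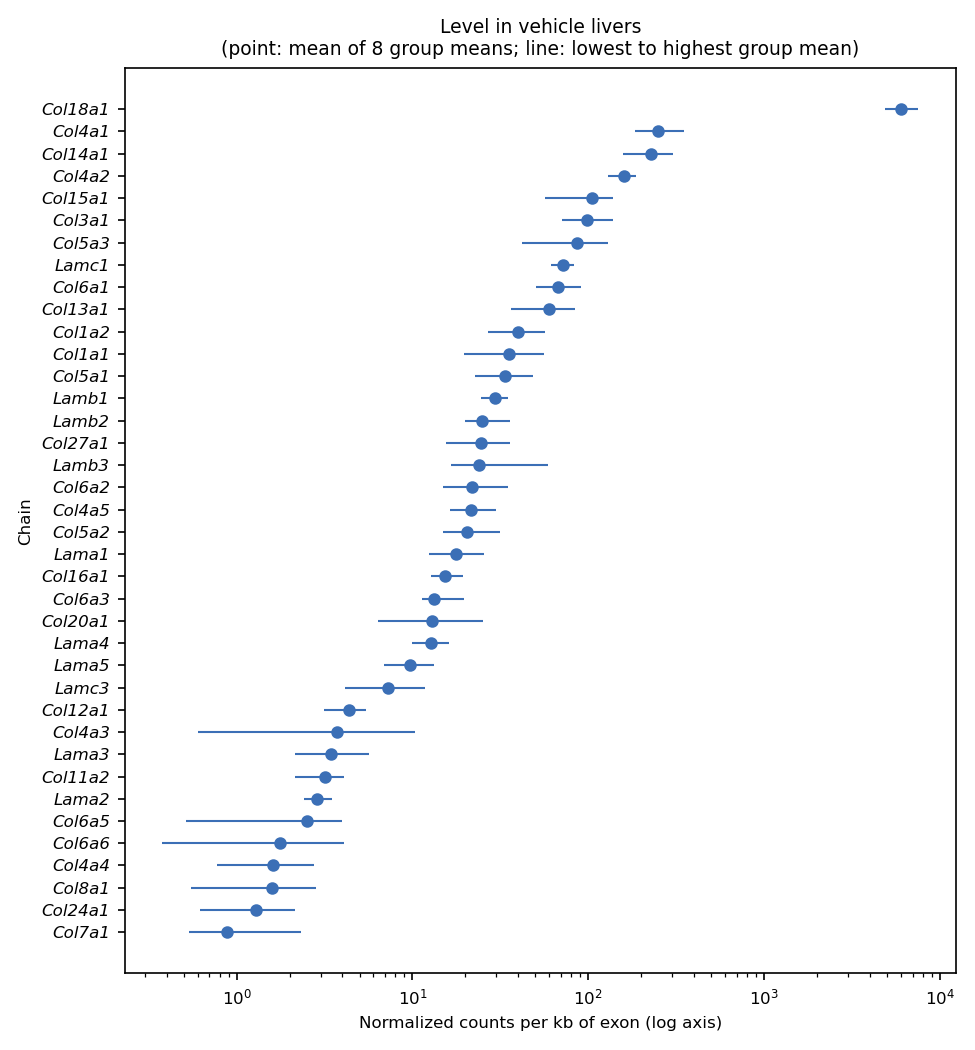
Level of 38 of the 39 chains in vehicle livers, in normalized counts per kb of exon on a log axis; points are the mean of 8 group means and lines run from the lowest to the highest group mean. Col18a1 stands apart at 6027, Col4a1 is next at 250.4 and Col7a1 is lowest at 0.879.

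Chains that share a helix can share a stretch of genome. In GRCm38 coordinates Col4a1 (chromosome 8, 11198423 to 11312826, minus strand) and Col4a2 (11312805 to 11449287, plus strand) lie head to head, and their first exons overlap by 22 bases. Col4a4 (chromosome 1, 82448423 to 82586849, minus strand) and Col4a3 (82586921 to 82722059, plus strand) are also head to head, 71 bases apart. Lamc1 occupies chromosome 1 from 153218922 to 153332786 on the minus strand. Col18a1 occupies chromosome 10 from 77052178 to 77166548 on the minus strand. Of the 39 chains, 28 matched the RefSeq promoter table (GRCm38.p6). Shown are the shared stretch of the Col4a1 and Col4a2 pair, the bases just before the Col4a4 start, and the stretch upstream of the annotated Col18a1 exons, since these chains carry the results that follow; capitals mark the GC box, searched as GGGCGG on either strand.
Col4a1 and Col4a2, chr8:11312805-11312826, plus strand: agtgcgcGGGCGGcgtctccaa
Col4a4, chr1:82586850-82586879, minus strand: gtggccagcagccctgcccagattaagcgg
Col18a1, chr10:77166549-77166630, minus strand: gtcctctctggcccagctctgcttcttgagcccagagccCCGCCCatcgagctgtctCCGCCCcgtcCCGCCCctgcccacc
The 82 bases before the Col18a1 exons held 3 matches to the GC box, and 20.9% of 32851 windows of that length at the same place before RefSeq starts held at least 1. Another RefSeq start of Col18a1, at 77113705 within the gene, had 0 matches to the GC box, CCAAT or TATAAA in the 100 bases before it. Which start these livers used was not tested. In the 100 bases before the start, 14 of 31 windows of chains held the GC box against 24.7% of all windows, 1 held CCAAT against 18.9%, and none held TATAAA against 5.56%. A match is a run of letters and not a shown site.

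Most chains fell in wild-type livers 12 h after CCl4, while a small group rose. A chain was called where limma gave an adjusted p under 0.05 for CCl4 against vehicle over all 14558 genes tested, on log2(normalized count + 1), and all fold changes below are on that scale. In wild type at 4 h, 5 chains rose (23.1% of all genes did) and 1 fell (20.5% of all genes). At 12 h, 4 rose (29%) and 23 fell (29.4%). At 24 h, 5 rose (26.2%) and 11 fell (25%). At 7 days no chain was called in either direction (0.0275% of genes each way); 2 chains had an unadjusted p under 0.05 in limma, as 16.9% of genes did, and limma-voom also called none. In Adamts12-/- livers the counts were 4 up (21.1%) and 0 down (17.7%) at 4 h, 3 up (23.6%) and 4 down (23.1%) at 12 h, and 6 up (21.1%) and 3 down (23%) at 24 h. At 7 days the knockout had no call either way (0.309% and 0.385% of genes); 5 chains had an unadjusted p under 0.05 in limma, as 12.6% of genes did, and limma-voom called 1 higher, Col4a3. The share of falling chains in wild type at 12 h was above that of all genes, and the other shares were near or below it. Median log2 changes over the 39 chains were -1.0 in wild type and -0.41 in the knockout at 12 h, against -0.05 and -0.03 over all genes.

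**Figure D2:**
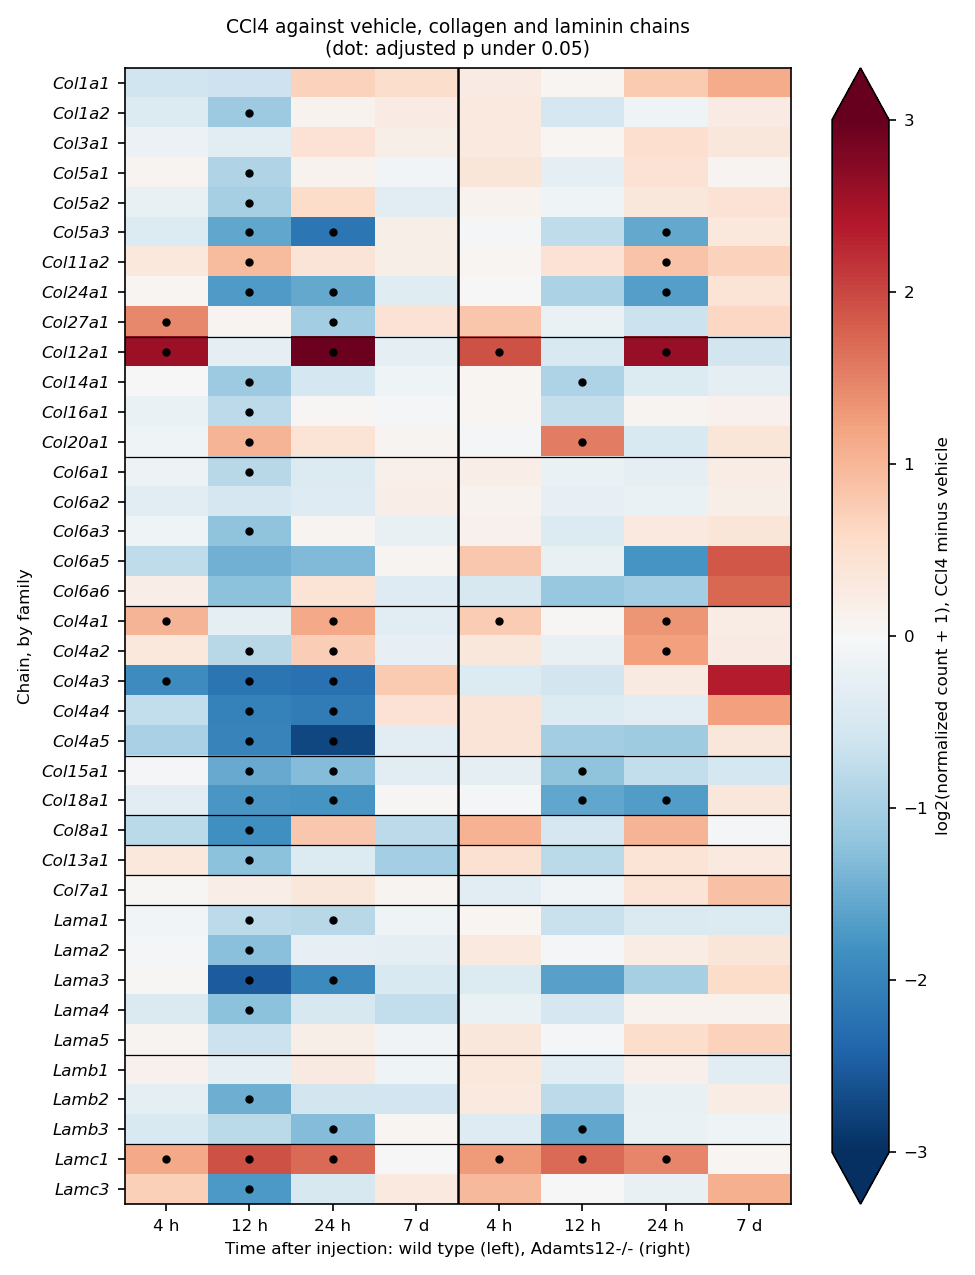
Change of 38 chains after CCl4 at 4 times in each genotype, as the difference in log2(normalized count + 1) between the group means of CCl4 and vehicle livers; rows are chains by family, and dots mark an adjusted p under 0.05. Lamc1 is red at 4 h, 12 h and 24 h in both genotypes, and the wild-type column at 12 h holds 23 falling chains.

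In 31 of 39 chains at least 1 of the 8 comparisons of CCl4 with vehicle was called, and 85% of all genes had such a call, so this count is no result about the chains. The 8 that were called in none were Col1a1, Col3a1, Col6a2, Col6a5, Col6a6, Col7a1, Lama5 and Lamb1. This set includes the main chains of the fibrils that build up in scarred liver, Col1a1 and Col3a1. It also includes the commonest laminin beta chain, Lamb1.

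Lamc1, the gamma chain found in most laminins, rose at 4 h, 12 h and 24 h in both genotypes. At 12 h the wild-type vehicle livers had 757.5, 543.6, 516.4, 696.2 and 570.6 normalized counts of Lamc1, and the CCl4 livers had 2118.7, 2106.2, 2151.5, 2200.5 and 2899.5. The groups did not overlap, and the lowest CCl4 liver was well above the highest vehicle liver. The log2 change was 1.90 ± 0.19 (SE; adjusted p = 2.43e-13). At 4 h Lamc1 rose by 1.13 ± 0.19 in wild type (adjusted p = 1.02e-06) and by 1.27 ± 0.19 in the knockout (adjusted p = 8.37e-08). At 24 h the rise was 1.71 ± 0.19 in wild type and 1.46 ± 0.19 in the knockout. In the knockout at 12 h the 4 CCl4 livers had 1281.4, 2342.7, 1951.6 and 1769.3 against 510.0 to 633.1 in vehicle, a log2 change of 1.71 ± 0.21. At 7 days the 10 wild-type livers ranged from 449.5 to 930.4 and the treatments overlapped.

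No alpha or beta chain of laminin was called higher with Lamc1 in either genotype. The values given for Lama1 to Lama4, Lamc3, Col4a4, Col6a6, Col8a1, Col11a2, Col13a1, Col16a1 and Col24a1, and for Col4a3 after 4 h, were chosen after they were seen. Lama3, an alpha chain of epithelia, fell in wild type at 12 h (log2 change -2.50 ± 0.64, from 24.8 to 44.1 counts in vehicle to 0.857 to 12.1), and the groups did not overlap. Lamb3, a beta chain of epithelia, fell in wild type at 24 h (-1.29 ± 0.37, adjusted p = 0.00281), with 82.4 to 229.5 counts in vehicle and, after CCl4, 39.0 to 59.6 in 4 livers and 232.0 in replicate 4. Without the wild-type libraries of mouse numbers below 7000, which leaves 1 vehicle liver there, its change was -0.28 (adjusted p = 0.81). In the knockout Lamb3 fell at 12 h by 1.56 on the log2 scale (adjusted p = 0.00139), with 67.5 to 112.5 counts after CCl4 against 126.6, 150.9, 160.9 and 1117.1 in vehicle. Without that highest vehicle liver, replicate 2, the change was -0.83 with an adjusted p of 0.0729. Lamb1, the usual partner of Lamc1, was called at no time, with log2 changes between -0.35 and 0.31 in the 8 comparisons. Lamb2, a beta chain of vessel walls, fell in wild type at 12 h by 1.47 on the log2 scale (adjusted p = 3.58e-05), from 111.6 to 213.6 counts down to 29.1 to 96.4, without overlap; in the knockout the change was -0.78 ± 0.34 (adjusted p = 0.0551). Lamc3 fell in wild type at 12 h too (-1.73 ± 0.41). Of the 5 alpha chains, Lama1, Lama2, Lama3 and Lama4 fell in wild type at 12 h, and Lama5 had -0.64 (adjusted p = 0.0673). The Lama1 call at 12 h (-0.79) was lost without CCl4 replicate 1, 3, 4 or 5 or vehicle replicate 1 or 4 (adjusted p 0.0508 to 0.129), and the change was -1.22 without CCl4 replicate 2. At 24 h in wild type Lama1 was called lower again (-0.84), but not without CCl4 replicate 1, 2 or 5 or vehicle replicate 2 (adjusted p 0.0513 to 0.0687). Lama3 was called lower at 24 h too (-1.90), with 3.4, 19.1, 0, 105.7 and 6.0 counts after CCl4 against 22.6 to 93.0 in vehicle. Its replicate 4 was above every vehicle liver, and the call was lost without CCl4 replicate 3 (-1.10, adjusted p = 0.133) or vehicle replicate 1 (-1.53, adjusted p = 0.0517). Without mouse numbers below 7000 neither was called at 24 h (adjusted p 0.63 for Lama1 and 0.349 for Lama3). In the knockout no alpha chain was called, and the nearest was Lama3 at 12 h (-1.63 ± 0.71, adjusted p = 0.0538).

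Col4a1, the most widespread collagen IV chain and the partner of Col4a2, rose at 4 h and 24 h and was not called at 12 h. In wild-type vehicle livers at 4 h Col4a1 had 1882.3, 1190.9, 1178.3, 1168.1 and 1425.3 normalized counts, and after CCl4 it had 2114.8, 2798.7, 3129.0, 2993.5 and 2753.3. The groups did not overlap (log2 change 1.02 ± 0.22, adjusted p = 8.99e-05). At 12 h the wild-type change was -0.30 and not called, with 1265.7 to 2157.4 after CCl4 and 1599.8 to 2797.7 in vehicle. At 24 h all 5 CCl4 livers (2803.0 to 5242.4) were again above all vehicle livers (1530.7 to 1900.1), a rise of 1.13 ± 0.22 (adjusted p = 1.54e-05). In the knockout Col4a1 rose by 0.75 ± 0.22 at 4 h, where vehicle replicate 4 at 3535.8 overlapped the CCl4 livers, had a change of 0.04 at 12 h, and rose by 1.32 ± 0.22 at 24 h.

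Col4a2 was not called at 4 h in either genotype (0.31 in wild type). In the knockout the CCl4 livers then had 1041.7 to 1562.0 counts. Knockout vehicle replicate 4 had 1516.2 and the other vehicle livers had 764.7 to 884.3. At 12 h it fell in wild type by 0.83 ± 0.22 on the log2 scale (adjusted p = 0.00105), from 916.2, 1368.6, 1398.5, 932.7 and 1188.6 counts to 946.0, 861.0, 484.5, 365.0 and 760.7. The 2 groups overlapped in 1 CCl4 liver. At 24 h Col4a2 rose by 0.73 ± 0.22 in wild type (adjusted p = 0.00444) and by 1.24 ± 0.22 in the knockout (adjusted p = 5.49e-06), without overlap in either. Within groups the levels of both chains moved together across livers, as given below for pairs.

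The minor collagen IV chains, which form the specialised networks of kidney and lung basement membrane, went down in wild type. Col4a5 had 53.8 to 174.6 counts in vehicle and 11.4 to 50.7 after CCl4 at 12 h (-2.01 ± 0.49, adjusted p = 0.000344). At 24 h it had 166.1 to 259.1 in vehicle, and after CCl4 168.9 in replicate 4 and 2.2 to 41.7 in the other 4 (-2.72 ± 0.49, adjusted p = 4.08e-06). Col4a3 fell in wild type at 4 h, 12 h and 24 h (-1.89, -2.19 and -2.24), and Col4a4 fell at 12 h and 24 h (-2.02 and -2.10), at levels of 0 to 34.3 counts at 12 h for both. The fall of Col4a3 at 4 h was not called without vehicle replicate 5, which had 249.8 counts (-1.50, adjusted p = 0.0690), nor without CCl4 replicate 1 (-1.59, adjusted p = 0.0537). In the knockout none of these 3 chains was called, with changes between -1.07 for Col4a5 at 24 h and 2.35 for Col4a3 at 7 days. The difference from wild type was not called for them at any time. Without mouse numbers below 7000 the wild-type calls at 24 h were lost for Col4a3 (-2.08, adjusted p = 0.152) and Col4a4 (-1.71, adjusted p = 0.328).

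Of the multiplexins, collagens with a broken helix that attach to basement membranes, Col18a1 fell most firmly. At 12 h the wild-type vehicle livers had 38171.3, 31976.9, 40020.9, 38197.6 and 38749.1 normalized counts and the CCl4 livers had 8244.1, 22577.3, 8384.6, 10330.9 and 10630.5. Replicate 2 was the highest CCl4 liver, still below every vehicle liver, and the ratio of the means was 0.32 (log2 change -1.74 ± 0.21, adjusted p = 1.03e-10). In the knockout the ratio at 12 h was 0.35 (-1.57 ± 0.23, adjusted p = 7.84e-08). At 24 h Col18a1 had ratios of 0.30 in wild type and 0.33 in the knockout (-1.78 ± 0.21 and -1.67 ± 0.21), again with no overlap. At 7 days the wild-type CCl4 livers (34834.3 to 54453.9) overlapped the vehicle livers (42851.9 to 51226.4).

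The hepatocyte is a known source of collagen XVIII, and hepatocyte markers fell with Col18a1 at 12 h and in part at 24 h. All 5 measured hepatocyte markers fell at 12 h in both genotypes, where 29.4% of all genes fell in wild type and 23.1% in the knockout. In wild type their sum ranged from 1422364 to 2893936 after CCl4 against 3786148 to 5258611 in vehicle. At 24 h 2 of 5 fell in wild type (25% of all genes did) and 4 of 5 in the knockout (23%). The wild-type sums then overlapped, at 1770378 to 2800324 after CCl4 against 2665631 to 3496867 in vehicle. In the knockout they were 1692631 to 2958064 against 2966183 to 4052484. The part of these markers in the fall of Col18a1 was not tested. Col15a1, the other multiplexin and a product of endothelial and muscle cells, fell in wild type at 12 h (-1.51 ± 0.45) and 24 h (-1.29 ± 0.45) and in the knockout at 12 h (-1.20 ± 0.50, adjusted p = 0.0411). The knockout call was lost without CCl4 replicate 2, 3 or 4 or vehicle replicate 2, 4 or 5 (adjusted p 0.0506 to 0.112). The wild-type 24 h call was lost without CCl4 replicate 3, which had 64.9 counts (-0.68, adjusted p = 0.178).

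**Figure D3:**
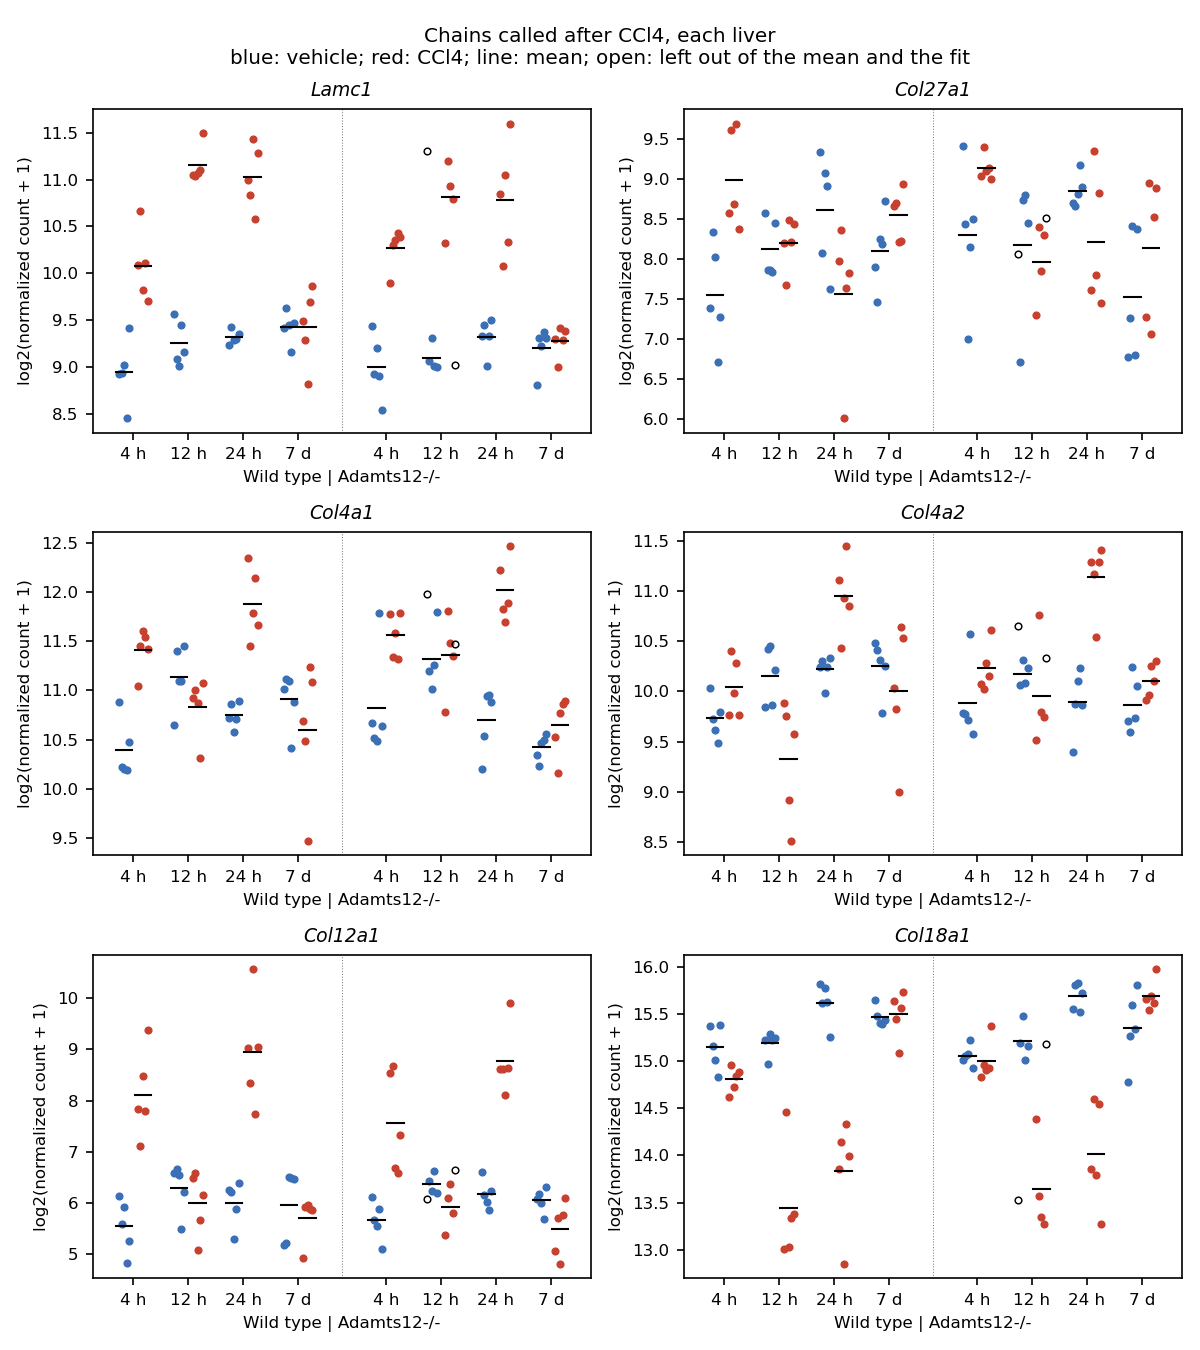
Level of 6 chains in each of the 80 livers on the log2(normalized count + 1) scale, by genotype and time; blue is vehicle, red is CCl4, lines are means, and open points are the 2 libraries left out. Lamc1 is higher after CCl4 at 4 h to 24 h, Col27a1 in wild type is higher at 4 h and lower at 24 h, Col12a1 is high at 4 h and 24 h with 12 h at the vehicle level, and Col18a1 drops at 12 h and 24 h.

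Among collagens that sit on fibrils, Col12a1 rose at 4 h and 24 h and not at 12 h. Collagen XII links fibrils and is known from tissues under tension. The wild-type vehicle livers at 4 h had 69.0, 47.2, 59.5, 27.3 and 37.2 normalized counts of Col12a1 and the CCl4 livers had 225.8, 136.3, 354.6, 220.0 and 667.3. The lowest CCl4 liver was above the highest vehicle liver (log2 change 2.57 ± 0.38, adjusted p = 5.33e-08). At 12 h the values were 43.9 to 100.7 in vehicle and 32.8 to 95.1 after CCl4, and the change of -0.30 was not called. At 24 h the CCl4 livers had 517.6, 321.5, 1512.5, 211.4 and 531.0 against 38.1 to 83.2, a rise of 2.93 ± 0.38 (adjusted p = 2.26e-09). The knockout followed the same course, with 1.91 ± 0.38 at 4 h, -0.46 at 12 h and 2.61 ± 0.38 at 24 h. The change of the CCl4 effect over the 4 times was called in both genotypes (F test in limma, adjusted p = 1.74e-08 in wild type and 3.41e-07 in the knockout).

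Col14a1, a fibril-associated collagen of quiescent stellate cells, fell at 12 h in both genotypes. Wild-type vehicle livers had 859.6 to 1788.4 counts, and the CCl4 livers had 404.0, 1386.5, 432.6, 452.4 and 436.7. Replicate 2 alone overlapped the vehicle livers; the log2 change was -1.10 ± 0.26 (adjusted p = 0.000251), and -1.44 without replicate 2. In the knockout the fall was 0.92 on the log2 scale (SE 0.29, adjusted p = 0.00743), with 637.6 to 791.4 counts against 827.9 to 2409.2. It was not called without vehicle replicate 3 (-0.63, adjusted p = 0.0855). Col16a1 fell in wild type at 12 h (-0.79), a call that was lost without CCl4 replicate 3 or 4 or vehicle replicate 1 (adjusted p 0.0924 to 0.114). Col20a1 was the exception in this family: it rose at 12 h in wild type (1.02 ± 0.43, adjusted p = 0.0358) and in the knockout (1.54 ± 0.48, adjusted p = 0.00613), with overlapping groups in both. The wild-type call was lost without CCl4 replicate 2 or 3 or vehicle replicate 1, 3, 4 or 5 (adjusted p 0.0527 to 0.108), and the knockout call without vehicle replicate 4 (1.17, adjusted p = 0.0538). With both knockout 12 h libraries put back, the knockout call was lost too (1.03, adjusted p = 0.0963 in limma).

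Col1a1 and Col3a1, the chains of the main fibrils, varied widely among livers of a group and were not called at any time. In wild type at 24 h Col1a1 had 321.1, 210.4, 117.6, 73.7 and 853.8 counts in vehicle and 445.0, 100.8, 320.4, 1984.0 and 184.5 after CCl4. The groups overlapped throughout, and the highest CCl4 liver was replicate 4, the library with the high mesothelium and portal fibroblast markers. The log2 change was 0.68 ± 0.61 (adjusted p = 0.363), and 0.05 without replicate 4 (adjusted p = 0.948). Col3a1, which forms fibrils with collagen I, had 434.2 to 3988.5 in vehicle and 546.7 to 6459.9 after CCl4 at 24 h (0.44 ± 0.46), and -0.15 without replicate 4. In the knockout at 24 h Col1a1 had 91.2 to 334.1 in vehicle and 189.7 to 496.0 after CCl4 (0.78 ± 0.61, adjusted p = 0.309). At 7 days the knockout change of Col1a1 was 1.12 ± 0.61 (adjusted p = 0.460). These intervals do not show that collagen I was unchanged: the spread of Col1a1 within groups, an SD of 1.00 on the log2 scale, was above that of 96.7% of genes.

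**Figure D4:**
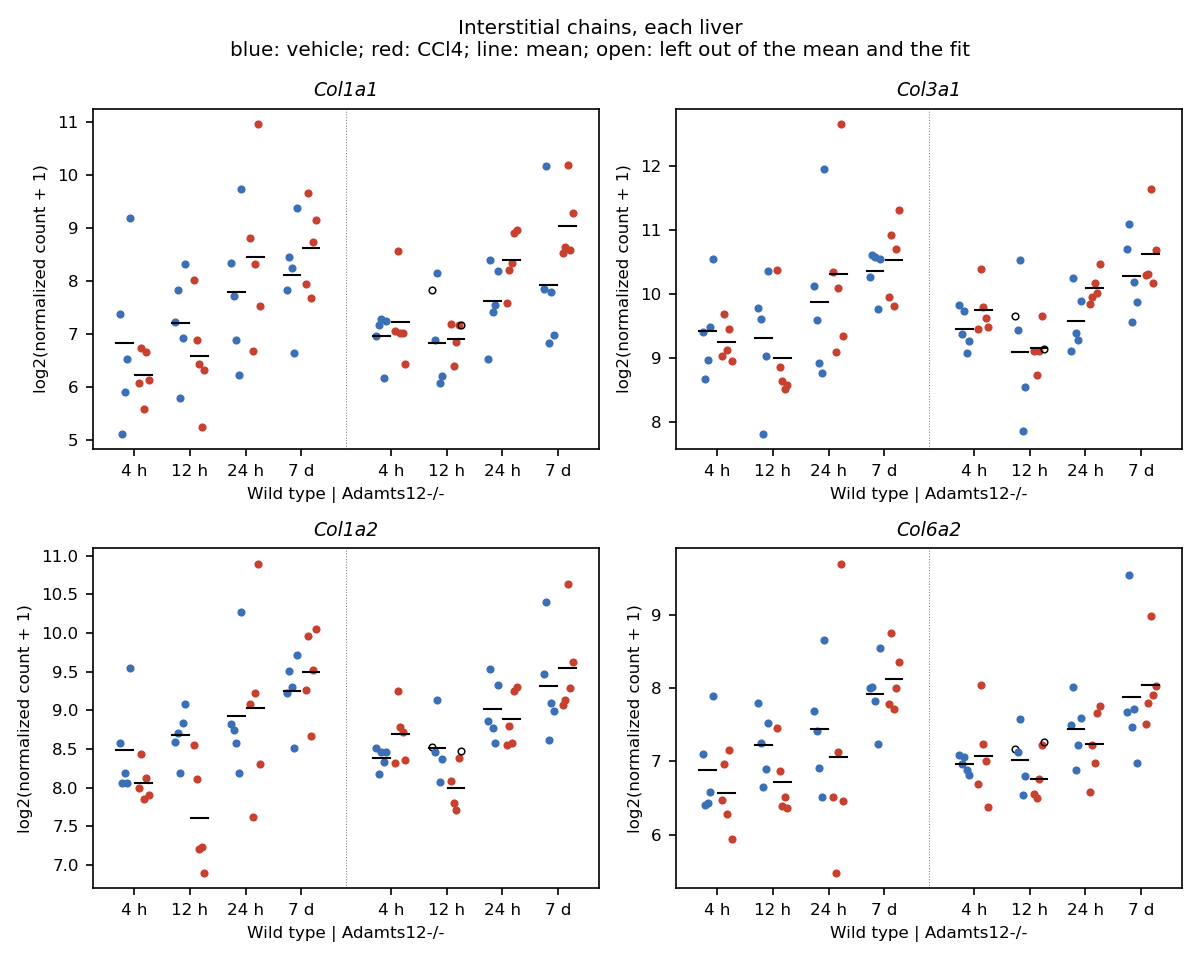
Level of Col1a1, Col3a1, Col1a2 and Col6a2 in each of the 80 livers on the log2(normalized count + 1) scale; blue is vehicle, red is CCl4, lines are means, and open points are the 2 libraries left out. Treated and vehicle livers overlap for Col1a1 at every time, and wild-type CCl4 replicate 4 is the highest liver at 24 h in all 4 panels.

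Other fibrillar chains fell at 12 h in wild type. Col1a2 went from 290.7 to 543.4 counts in vehicle to 118.2 to 374.8 (-1.08 ± 0.36, adjusted p = 0.00778), although its partner Col1a1 was not called (-0.63 ± 0.61). Col5a1 and Col5a2, the chains of collagen V that set the width of collagen I fibrils, fell by 0.91 and 1.00 on the log2 scale. The Col5a2 call was lost without CCl4 replicate 3 or 4 or vehicle replicate 5 (adjusted p 0.0516 to 0.0615) and with limma-voom (adjusted p = 0.0506). Col5a3, another collagen V chain, fell by 1.57 at 12 h and, at 24 h, by 2.17 in wild type (adjusted p = 0.000117) and 1.54 in the knockout (adjusted p = 0.00648). In the 24 h groups Col5a3 overlapped through 1 liver each, wild-type CCl4 replicate 4 at 790.8 and knockout CCl4 replicate 2 at 895.2, with 41.5 to 209.1 and 132.6 to 349.9 in the others. Col27a1, a fibrillar chain of cartilage, rose in wild type at 4 h, from 166.9, 323.9, 260.3, 104.4 and 153.7 to 381.2, 779.2, 409.5, 825.6 and 330.2 counts without overlap (1.43 ± 0.40, adjusted p = 0.00237), and was called lower at 24 h (-1.04 ± 0.40). The 24 h call was lost without CCl4 replicate 3 (-0.66, adjusted p = 0.175) or vehicle replicate 1, 3 or 4 (adjusted p 0.055 to 0.0865), and without mouse numbers below 7000 the change was -0.07 (adjusted p = 0.958). Col24a1 fell at 12 h and 24 h in wild type and at 24 h in the knockout, at means under 10 counts. Its 24 h calls were lost without wild-type CCl4 replicate 1 or vehicle replicate 3 (adjusted p 0.0705 and 0.0701) and without knockout CCl4 replicate 1 (adjusted p = 0.0586). Col11a2 rose in wild type at 12 h (0.94) and in the knockout at 24 h (0.86), at means of 14.7 to 38.2. The first call was lost without vehicle replicate 4 (0.66, adjusted p = 0.0825), and the second without CCl4 replicate 5 or vehicle replicate 2 or 5 (adjusted p 0.056 to 0.11).

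Collagen VI makes beaded filaments near cells. Of its 5 measured chains, Col6a1 (-0.83 ± 0.33) and Col6a3 (-1.20 ± 0.33) fell in wild type at 12 h, and Col6a2 had -0.50 ± 0.41 (adjusted p = 0.297). The Col6a1 call was lost without CCl4 replicate 3, 4 or 5 or vehicle replicate 4 or 5 (adjusted p 0.0525 to 0.0697). Without wild-type CCl4 replicate 4, Col6a1 and Col6a2 were also called lower at 24 h (-0.94 and -1.04), as were Col14a1 (-0.68) and Lamb2 (-1.06), and the number of falling chains there was 16 and not 11. Col8a1, a network collagen of vessels, and Col13a1, a transmembrane collagen, fell in wild type at 12 h by 1.85 and 1.22 on the log2 scale. The Col13a1 call was lost without vehicle replicate 2 (-0.95, adjusted p = 0.0525). Col6a5 had the widest spread of any chain (SD 1.88), and neither it nor Col7a1, the anchoring fibril chain, was called.

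Markers of some cell types were called at the same times as the chains. At 12 h all 9 sinusoidal endothelium markers fell in wild type (29.4% of all genes did) and 4 of 9 in the knockout (23.1%); their sum was 3487 to 6667 after CCl4 against 7320 to 14827 in wild-type vehicle livers, and 5167 to 7633 against 8778 to 12453 in the knockout. Of 11 quiescent stellate cell markers 3 fell in each genotype at 12 h, of 8 portal fibroblast markers 2 fell in wild type and 1 in the knockout, and of 6 mesothelium markers 2 fell in wild type and 0 in the knockout. These shares were near or below those of all genes, and carry no result about these cells. Stellate sums at 12 h were 6648.4 to 10226.3 after CCl4 against 8672.7 to 15748.6 in wild type. In the knockout they were 6401.0 to 8185.5 against 8279.2 to 10452.7. Portal fibroblast and mesothelium sums overlapped in both genotypes. The 5 large-vessel endothelium markers summed to 777.4 to 1049.8 against 1189.7 to 1938.3 in wild type. In the knockout this sum was 1002.8 to 1278.2 against 1159.9 to 1440.1. At 24 h Acta2 and Tagln, of 4 measured markers of myofibroblasts and smooth muscle, rose in both genotypes, and 4 of 7 macrophage markers rose in both, where 26.2% of all genes rose in wild type and 21.1% in the knockout. The 4 myofibroblast markers summed to 496.3 to 4775.2 after CCl4, highest in replicate 4, against 412.6 to 755.9 in wild type. In the knockout they summed to 706.3 to 1626.1 against 493.3 to 1081.5, and both genotypes had overlap. Of 6 cholangiocyte markers, 3 rose at 4 h, 3 at 12 h and 1 at 24 h in wild type (23.1%, 29% and 26.2% of all genes), and 2, 3 and 2 in the knockout (21.1%, 23.6% and 21.1%), the times at which Lamc1 rose. Sox9 rose at all 3 times in both genotypes, and in wild type at 24 h it was the only 1 of the 6 called higher. In a list of 6 these counts are a description. The sum of the 6 was 1095.3 to 2715.2 after CCl4 against 513.9 to 764.8 in vehicle at 4 h in wild type, 1769.5 to 10803.5 against 798.0 to 3661.6 at 12 h, and 1764.6 to 6087.6 against 837.2 to 2897.6 at 24 h. In the knockout it was 1501.8 to 2451.0 against 535.1 to 933.1, 2070.4 to 4662.0 against 611.6 to 1254.8, and 1863.1 to 3009.7 against 646.1 to 976.4, without overlap. No cholangiocyte marker was at 0 in all livers of a group. No marker in the other lists was at 0 in all livers of a 12 h or 24 h group. Their part in the changes of the chains was not tested.

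The genotypes shared most of the rising chains, and no chain differed between them past the threshold. The rising chains in both at 4 h, Col12a1, Col4a1 and Lamc1 among them, were 80% of the wild-type list and 100% of the knockout list. Shared chains at 12 h, which included Lamc1 and Col20a1, were 75% and 100%, and at 24 h, with Col12a1, Col4a1, Col4a2 and Lamc1, they were 100% and 83.3%. The falling lists were less alike in length: at 12 h Col14a1, Col15a1 and Col18a1 fell in both, which was 13% of the 23 in wild type and 75% of the 4 in the knockout. At 24 h Col18a1, Col24a1 and Col5a3 fell in both, 27.3% of the 11 in wild type and 100% of the 3 in the knockout. These lists are short, and the share of all genes called in both genotypes is not given here. The overlaps are therefore a description and no result about the chains. The difference of the CCl4 effect between genotypes was tested directly in limma and called 0 chains at each of the 4 times (0.00687%, 0%, 0% and 0.00687% of genes). Unadjusted p was under 0.05 for 2, 2, 3 and 2 chains, where 4.68%, 2.82%, 4.77% and 11.3% of genes had such a p, and limma-voom also called 0. The smallest unadjusted p was 0.0062 for Lamc3 at 12 h, a change that lay 1.72 ± 0.61 higher in the knockout (adjusted p = 1.0), and 0.00744 for Col4a3 at 24 h (2.53 ± 0.91, adjusted p = 0.936). For the leading chains the differences at 12 h were 0.18 ± 0.31 for Col18a1, -0.18 ± 0.28 for Lamc1 and 0.61 ± 0.33 for Col4a2, all as knockout minus wild type.

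As a description, the knockout change lay above the wild-type change for 30, 32, 29 and 31 of 39 chains at 4 h, 12 h, 24 h and 7 days. The medians of these differences were 0.26, 0.57, 0.22 and 0.54 on the log2 scale, against values between -0.02 and 0.03 over all genes. The chains of a liver are measured in the same library and are not independent, so these counts carry no test. At 12 h the knockout groups had 4 livers and larger SEs than the wild-type groups.

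**Figure D5:**
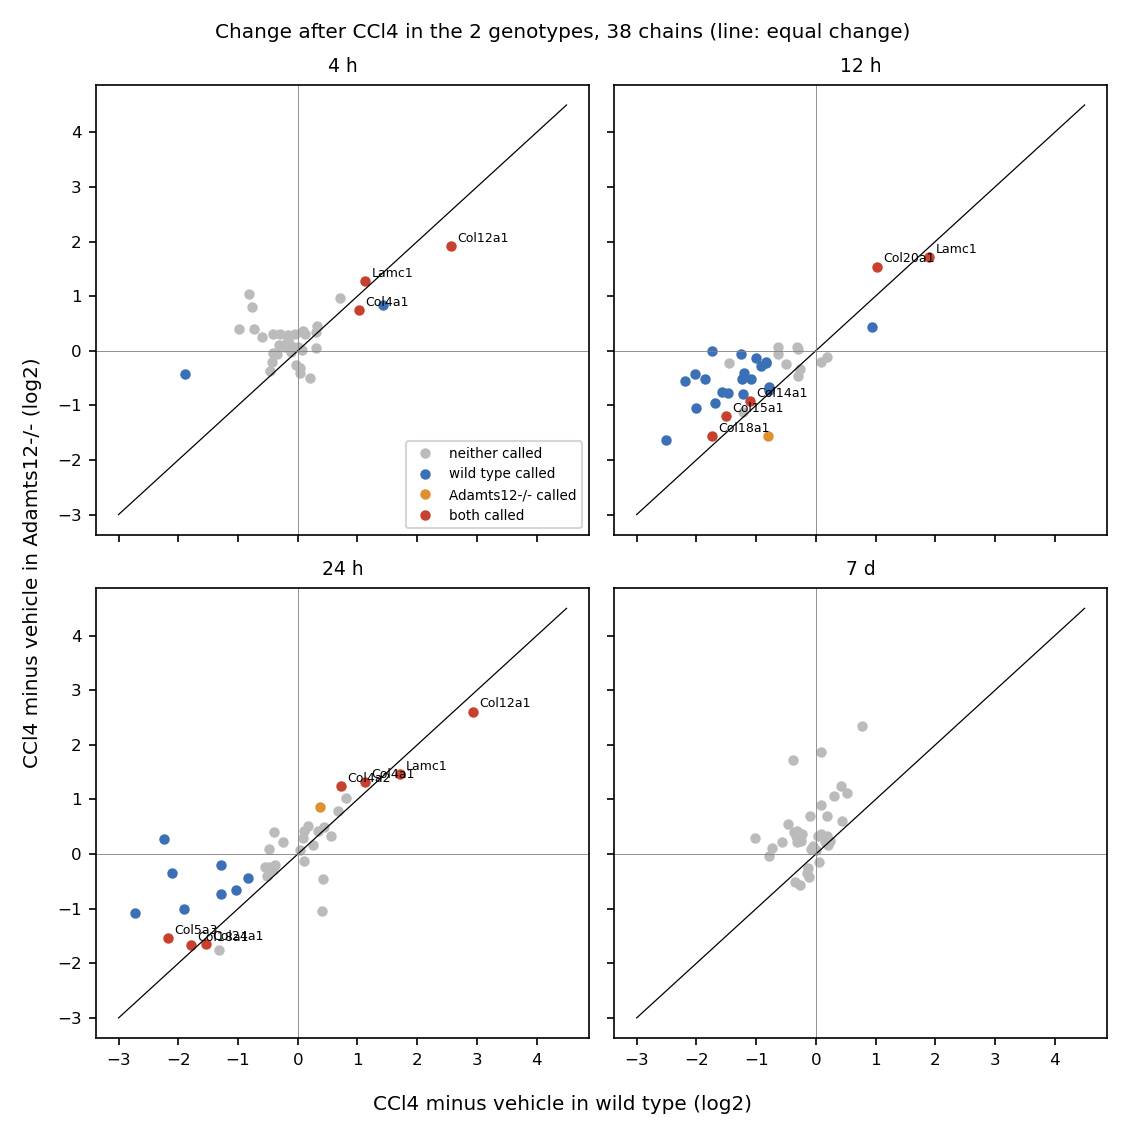
Change of 38 chains after CCl4 in wild type (x axis) and Adamts12-/- (y axis), as differences in log2(normalized count + 1), 1 panel for each time; the line marks equal change and colours show where a chain was called. At 12 h most points lie above the line, and Lamc1 and Col18a1 lie near it.

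Between genotypes at the same treatment no chain was called. In CCl4 livers limma called 0 chains at 4 h, 12 h, 24 h and 7 days (0.584%, 0.0206%, 0.0137% and 0% of genes), with an unadjusted p under 0.05 for 5, 11, 2 and 2 chains (8.81%, 9.49%, 6.78% and 7.22% of genes). At 12 h the 11 included Col4a2, with means of 1054.6 in the knockout and 683.4 in wild type (0.63 ± 0.23, adjusted p = 0.411), and Col5a3 (1.30 ± 0.51, adjusted p = 0.420). Over the vehicle livers of all times limma called 0 chains (0.282% of genes) and 8 had an unadjusted p under 0.05 (7.65%); limma-voom called 0 in all 5 of these comparisons. The smallest adjusted p there was 0.0911, for Col6a6, a minor collagen VI chain, which was 1.23 ± 0.33 higher in the knockout on the log2 scale.

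Some chains differed between the times in vehicle livers. The F test over the 4 times called 9 chains in wild type (38.9% of all genes) and 8 in the knockout (41.7%), below the share of all genes in both. Col4a1, Col4a3, Col5a1 and Col5a3 were in both lists. Col4a3 in wild-type vehicle livers was 54.2 to 249.8 counts at 4 h and 15.6 to 34.3 at 12 h. Whether this follows the clock time of collection cannot be told apart from the time after injection. In wild type some vehicle livers at 24 h and 7 days had a mouse number below 7000, and none at 4 h or 12 h did. Over all 4 times, time and mouse number therefore cannot be fully told apart in wild type. The CCl4 effect itself differed between times for 17 chains in wild type (62.9% of genes) and 9 in the knockout (51.7%). Both lists included Col18a1, Col12a1, Lamc1, Col4a1, Col4a2 and Col4a3. In wild type the count was 11 without CCl4 replicate 3 of the 12 h group.

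At 7 days the chain nearest to a call was Col4a3 in the knockout. Its vehicle livers had 44.3, 32.0, 8.3, 16.3 and 37.9 counts and the CCl4 livers 117.1, 249.6, 137.2, 42.1 and 183.6. A single CCl4 liver overlapped the vehicle livers (2.35 ± 0.65, adjusted p = 0.0608).

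In 6 pairs of chains known to work together, the levels varied together among livers of a group. After the group mean was taken away, Col6a1 and Col6a2 had a Pearson r of 0.96 over 78 livers (Spearman rho 0.93), Col1a1 and Col1a2 had 0.89 (rho 0.86), Col1a1 and Col3a1 had 0.89 (rho 0.90) and Col4a1 and Col4a2 had 0.80 (rho 0.77). For these 4 pairs the permutation p was 1e-05 for both measures, the smallest that 100000 permutations can give, and 1.5e-05 adjusted over the 6 pairs tested. Col5a1 and Col5a2 had r = 0.51 (rho 0.44, permutation p = 9e-05 and 0.0002, adjusted 0.000108 and 0.0002). Lamb1 and Lamc1 had r = 0.39 (rho 0.50, permutation p = 0.0006 and 2e-05, adjusted 0.0006 and 2.4e-05), and r = 0.20 with both knockout 12 h libraries put back. Without the 2 livers farthest from the median of the first chain, r was 0.93 for the collagen VI pair, 0.88, 0.87 and 0.75 for the next 3 in the order above, 0.39 for collagen V and 0.46 for the laminin pair. All values of a liver come from 1 library, and these pairs were chosen as known partners. No pair of other chains was tested, so the values do not show that partners vary together more than other chains do.

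Some enzymes that fold and modify collagen rose strongly, among them P4ha1 and P4ha2, but in wild type at 12 h as many genes of their list fell as rose. Of 19 measured genes of folding, modification and export, 6 rose and 1 fell in wild type at 4 h (23.1% and 20.5% of all genes did), 6 rose and 6 fell at 12 h (29% and 29.4%), and 8 rose and 1 fell at 24 h (26.2% and 25%). In the knockout 6, 5 and 7 rose (21.1%, 23.6% and 21.1%) and 0, 0 and 1 fell (17.7%, 23.1% and 23%). In a list of this length these counts are a description, and the list carries no test. The median log2 change of this list was 0.03 in wild type and 0.17 in the knockout at 12 h, where that of the chains was lowest. P4ha1, a catalytic subunit of prolyl 4-hydroxylase, rose at 4 h from a mean of 251.5 to 1004.6 in wild type (log2 change 1.99 ± 0.19, adjusted p = 1.62e-13) and from 255.6 to 1105.7 in the knockout (2.12 ± 0.19). P4ha2, the other main catalytic subunit, rose at 12 h by 2.34 ± 0.26 and 2.30 ± 0.29, the time at which most chains were down in wild type. Among 14 genes of processing and cross-linking, Bmp1, the procollagen C-proteinase, fell at 12 h and 24 h in both genotypes (-1.43 and -1.13 in wild type, -1.01 and -1.20 in the knockout). Loxl4, a cross-linking oxidase, rose at 4 h by 3.17 ± 0.44 and 2.79 ± 0.44.

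Among genes whose products bind the chains, Nid1 and Ddr1 rose and Pxdn and Itga1 fell. Of 12 basement membrane partners 0 were called at 4 h in either genotype, 1 rose (29% of all genes did) and 6 fell (29.4%) at 12 h in wild type, and 1 rose (23.6%) and 2 fell (23.1%) in the knockout; the 12 h medians were -0.85 and -0.33. At 24 h 1 rose (26.2%) and 2 fell (25%) in wild type, and 4 rose (21.1%) and 0 fell (23%) in the knockout. Nid1, nidogen, which bridges the gamma chain of laminin to collagen IV, rose at 24 h by 1.97 ± 0.28 in wild type (adjusted p = 3.58e-08) and 1.90 ± 0.28 in the knockout, while the peroxidase Pxdn, which cross-links collagen IV, fell at 12 h (-1.49 and -1.16). Of 13 measured receptors, 4 rose and 3 fell at 12 h in each genotype, shares near those of all genes (29% and 29.4% in wild type, 23.6% and 23.1% in the knockout). Ddr1, a collagen receptor kinase, rose at 4 h, 12 h and 24 h in both genotypes (1.06, 2.55 and 2.28 in wild type, 1.59, 3.06 and 2.26 in the knockout), and Itga3, a subunit of a laminin receptor, rose at 12 h by 2.52 ± 0.25 and 2.36 ± 0.28. Itga1, a subunit of a collagen receptor, fell at 12 h (-1.17 and -0.85).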

How the data were processed

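The authors deposited 1 table of normalized signal, read counts per gene divided by a size factor for each library, for 80 livers. The submitters' processing notes name STAR, HTSeq, DESeq2 and GRCm38, with no versions, and the labels' protocols give stranded mRNA libraries made from 500 ng of RNA; whether counting used strand is not given in the sources used here. In every library all values were whole multiples of a step within a tolerance of 0.01, which gave the depth. No pair of libraries held the same reads: the closest had a correlation of 0.9897, and chi-square divided by its degrees of freedom was 29.24. The labels do not say that the livers shared a litter or a day, and same-numbered libraries did not deviate together (median r -0.00559), so no pairing was used.

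The filter asked for a value of 10 or more in 5 or more libraries (2 genes removed, 14558 tested). log2 of the deposited value plus 1 was fitted with limma 3.58.1 in R 4.3.3, with a mean for each of 16 groups, 78 libraries and an empirical Bayes trend; p values are two-sided and adjusted by the Benjamini-Hochberg method over all genes in a comparison. The spread between livers of a group is the error. The fit was tested on simulated data. Per-kb levels used exon lengths of GENCODE M21, and pair correlations used Python 3.11.15 with scipy 1.17.1. Counts cover all 39 chains, and 1 of them is not reported here. The members and lists were chosen with earlier results of these data known. Values are given for up to 5 called chains in each direction with the smallest adjusted p and a mean of at least 100 in a compared group, for 17 main chains whatever they did, and for up to 4 called partner genes of a comparison. Alternatives were a pseudocount of 8, no filter, quantile normalization, a fit of the compared groups, replicate number as a block, both 12 h libraries put back, leaving out each library or the wild-type libraries with a mouse number below 7000, and limma-voom on the recovered reads, which was chosen after seeing the data.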

Additional observations from a re-analysis of the deposited data

Results flagged for a closer look

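Of 72 sets of 4 or 5 livers examined for a called chain, 16 held a liver whose gap to the nearest other liver took up most of the range of its group (Dixon's criterion at 95%). The criterion was applied to normalized counts and not to log2 values. Its rate of about 1 in 20 by chance holds for normally distributed values, so the 16 sets are no measure of an excess. Sets that share a liver are not independent. Wild-type CCl4 replicate 2 at 12 h stood apart in 2 chains, with Col18a1 at 22577.3 against 8244.1 to 10630.5 and Col14a1 at 1386.5 against 404.0 to 452.4, each on the side of the vehicle livers. Wild-type CCl4 replicate 4 at 24 h stood apart in 3 others, with Col4a5 at 168.9, Col5a3 at 790.8 and Lamb3 at 232.0, each the highest. Wild-type vehicle replicate 2 at 12 h had the highest Col20a1 (171.9) and the lowest Col18a1 (31976.9).

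Elsewhere in wild type, vehicle replicate 5 at 4 h had Col4a3 at 249.8 against 54.2 to 80.3, CCl4 replicate 5 at 12 h had Lamc1 at 2899.5, CCl4 replicate 3 at 24 h had Col12a1 at 1512.5, and vehicle replicate 3 at 24 h had the lowest Col4a2 (1013.5). Among knockout livers, CCl4 replicate 1 at 4 h had the lowest Lamc1 (953.9), vehicle replicate 4 at 4 h had Col4a1 at 3535.8 against 1434.0 to 1626.2, and vehicle replicate 2 at 12 h had Lamb3 at 1117.1 against 126.6 to 160.9. Col12a1 reached 962.2 in CCl4 replicate 5 and Col5a3 reached 895.2 in CCl4 replicate 2 of the knockout at 24 h.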

How the results depend on the processing

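No called change of a chain turned its direction under an alternative, but changes that were not called did, such as that of Col3a1 in wild type at 24 h. With both knockout 12 h libraries put back, 1 chain fell in the knockout at 12 h in place of 4, and 2 rose in place of 3. The Lamb1 and Lamc1 correlation was then 0.20. These 2 libraries stand with the other treatment. In a fit of only the groups compared, 3 chains fell in wild type at 4 h, 7 fell at 24 h, 2 differed between genotypes in CCl4 livers at 4 h, and 15 differed between times in wild-type vehicle livers. Without the wild-type libraries of mouse numbers below 7000, 2 chains rose at 12 h and 3 rose and 2 fell at 24 h in wild type; at 24 h the calls of Col4a2 (0.62, adjusted p = 0.206), Col5a3 (-1.62, adjusted p = 0.166), Col4a3, Col4a4, Col15a1, Col24a1, Col27a1, Lama1, Lama3 and Lamb3 were among those lost, and the vehicle group there kept 1 liver, which is assumed to vary like the other groups. In the knockout at 7 days 1 chain rose, Col4a3, in that fit, with a pseudocount of 8, with quantile normalization and with voom, and quantile normalization called 1 chain between genotypes in vehicle livers. The cause of these shifts was not tested.

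Leaving out single libraries gave these ranges of called chains. In wild type, falls were 0 to 1 at 4 h, 19 to 24 at 12 h, 8 (without CCl4 replicate 3) to 16 (without CCl4 replicate 4) at 24 h, and 0 to 1 at 7 days (1 without CCl4 replicate 4), and rises were 2 (without vehicle replicate 4) to 4 at 12 h and 5 at 4 h and 24 h. In the knockout, falls were 3 to 8 at 12 h (8 without CCl4 replicate 1) and 2 to 5 at 24 h (5 without CCl4 replicate 2), and rises were 4 to 5 at 4 h, 2 to 3 at 12 h and 5 to 6 at 24 h. The CCl4 effect differed between times for 11 to 23 chains in wild type and 8 to 12 in the knockout, vehicle livers differed between times for 6 to 11 in wild type and 4 to 10 in the knockout (4 without replicate 2 or 5 at 4 h or replicate 4 at 7 days, 5 without replicate 2 or 4 at 24 h or 5 at 7 days), and the genotypes differed in vehicle livers for 0 to 1 (1 without wild-type replicate 5 at 4 h or 2 at 12 h, or knockout replicate 1 at 24 h).

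With the replicate number as a block, 5 chains fell in the knockout at 12 h, the CCl4 effect differed between times for 15 in wild type, and no count moved by over 1.5 times; 14 of 78 libraries correlated best with a library of their own number. The edgeR test was not run on the recovered reads, and limma-voom was run on them in its place. Chains under about 10 normalized counts rest on few reads, and the 12 h knockout groups of 4 livers and the wide spread of Col1a1, Col3a1 and Col6a5 limit what could be called.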
